A study of Mus musculus with 6 samples.

Results

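The locus of the long noncoding RNA genes Malat1 and Neat1 was described through the PU.1 binding peaks that lie in it, in mouse iBN cells before and after induction of PU.1. Its members are all peaks that overlap chr19:5770000-5880000 (mouse build mm9), a window of 110.0 kb that holds Malat1 at about 5.796 to 5.803 Mb and Neat1 at about 5.825 to 5.846 Mb. The window was chosen by the widths of induced peaks in these same lists, the widest of which lie in it, so the widths and scores of its peaks are a description and carry no test. It held 18 of the 68076 peaks of induced replicate 1, 14 of 57336 in induced replicate 2, 9 of 31960 in uninduced replicate 1 and 15 of 42951 in uninduced replicate 2. The authors' merged lists held 17 peaks (induced, of 71582) and 13 peaks (uninduced, of 44233) there. Joining peaks of the 4 libraries that touched by 1 bp or more gave 17 regions in the window, out of 82810 in the genome.

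iBN cells are a mouse line labelled as a granulocyte-macrophage progenitor, kept in GM-CSF and carrying a system from which PU.1 can be induced with doxycycline. Induced cells were kept with doxycycline at 1000 ng per ml for 72 hours. Uninduced cells carry the same system and had no drug. There were 2 ChIP libraries per condition, made with a polyclonal antibody against PU.1. The sources used here give neither the promoter of the system nor the number of clones, nor whether replicates were separate cultures, so the spread between replicates may be technical. Peak lists hold no expression, and the label of the cell type was not checked.

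PU.1, a transcription factor of the ETS family, binds purine-rich sites with a GGAA core and helps to open chromatin in myeloid cells and B cells. Malat1 is an abundant RNA of nuclear speckles, and a small tRNA-like RNA, mascRNA, is cut from its 3′ end. Neat1 is the RNA scaffold of paraspeckles, nuclear bodies that hold RNA-binding proteins such as NONO and SFPQ, and it is made as a short and a long isoform that share their start. Both genes are read from higher to lower coordinates, so that their starts lie at about 5.803 and 5.846 Mb. For Malat1 the direction is that of the RefSeq promoter table. For Neat1 it is general knowledge that no file used here states, and all wording on its start and on upstream or inner sequence rests on it. In the RefSeq gene table for GRCm38.p6, from which no position was taken, Frmd8 and then Slc25a45 follow Neat1.

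A peak lay over the start of Malat1 in each of the 4 libraries and in both merged lists, allowing 0.5 kb for the rounding of the gene's limits. The promoter of Malat1 is therefore shown, as given by RefSeq for GRCm38.p6, with 250 bases before and 50 bases after the start and the PU.1 core GAGGAA in capitals.
Malat1 promoter: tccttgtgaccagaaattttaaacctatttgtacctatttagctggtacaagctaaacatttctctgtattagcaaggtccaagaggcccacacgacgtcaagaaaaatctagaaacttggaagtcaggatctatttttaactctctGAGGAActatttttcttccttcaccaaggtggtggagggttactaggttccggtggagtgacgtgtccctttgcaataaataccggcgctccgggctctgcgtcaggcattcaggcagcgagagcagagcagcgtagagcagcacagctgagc
Searched on both strands, GAGGAA occurred 1 time, on the strand of the gene, with its first base 103 bases before the start. The shorter ETS core GGAA occurred 4 times, 2 on each strand, and 1 of these lies within the GAGGAA match. Of the 32851 promoters of this length in the table, 28.3% held GAGGAA and 96.0% held GGAA on either strand, and 46.3% held GGAA at least 4 times. A match is a string of letters and was not tested for binding.

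The peak over the start of Neat1 was the widest of each induced list. In induced replicate 1 it spanned chr19:5835070-5851434, 16365 bp with a score of 3100, and in induced replicate 2 chr19:5838544-5850860, 12317 bp with a score of 2892.8. It thus reached from inside the gene, across the start, into the sequence upstream. The right edges of both peaks, upstream of the gene, were 574 bp apart and the left edges, inside the gene, 3474 bp. The mean width was 14341 ± 2862 bp (SD, n = 2). The score is 1 value per peak as deposited, taken here as that of MACS, which by its design is higher for peaks with smaller p-values. Its scale in these lists is not known. The value 3100 was carried by 367 peaks of induced replicate 1, so it does not order them.

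The same stretch carried 3 neighbouring peaks in each uninduced library. In uninduced replicate 1 they were chr19:5838222-5843697 (5476 bp, score 1651.72) inside Neat1, chr19:5844229-5847200 (2972 bp, score 99.2) over the start, and chr19:5847763-5850471 (2709 bp, score 547.94) upstream. In uninduced replicate 2 they were chr19:5839227-5843848 (4622 bp, score 263.13), chr19:5844248-5847331 (3084 bp, score 253.51) and chr19:5848729-5850616 (1888 bp, score 370.72). The peaks over the start had nearly the same limits in both uninduced libraries, 19 bp apart on the left and 131 bp on the right. The gaps between the 3 peaks measured 531 to 562 bp in uninduced replicate 1 and 399 to 1397 bp in uninduced replicate 2. Together the peaks covered 68.2% of the widest induced peak in uninduced replicate 1 and 58.6% in uninduced replicate 2, against 75.3% in induced replicate 2.

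The stretch at Neat1 was therefore wide before induction as well. It differed between conditions in whether the peaks were joined, and also in summed width and score. The summed widths were 16365 and 12317 bp in induced and 11157 and 9594 bp in uninduced replicates 1 and 2. The highest scores were 3100 and 2892.8 against 1651.72 and 370.72 in the same order. With peaks of a list at most 1 kb apart joined, uninduced replicate 1 had a stretch of 12250 bp there, the widest of its 30387 joined peaks, close to the 12317 bp of induced replicate 2. The merged uninduced list gave 12417 bp, also the widest of that list. In the merged induced list the stretch was 19227 bp and ranked 5 of 62846. In uninduced replicate 2 a gap remained, and the wider piece of 8105 bp ranked 5 of 39602. The joined stretch was 19216 bp in induced replicate 1, again the widest there, and the 12317 bp of induced replicate 2 then ranked 3 of 51032. As single peaks, the widest of the window ranked 1 by width in both induced lists, 5 in uninduced replicate 1 and 13 in uninduced replicate 2.

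**Figure D1:**
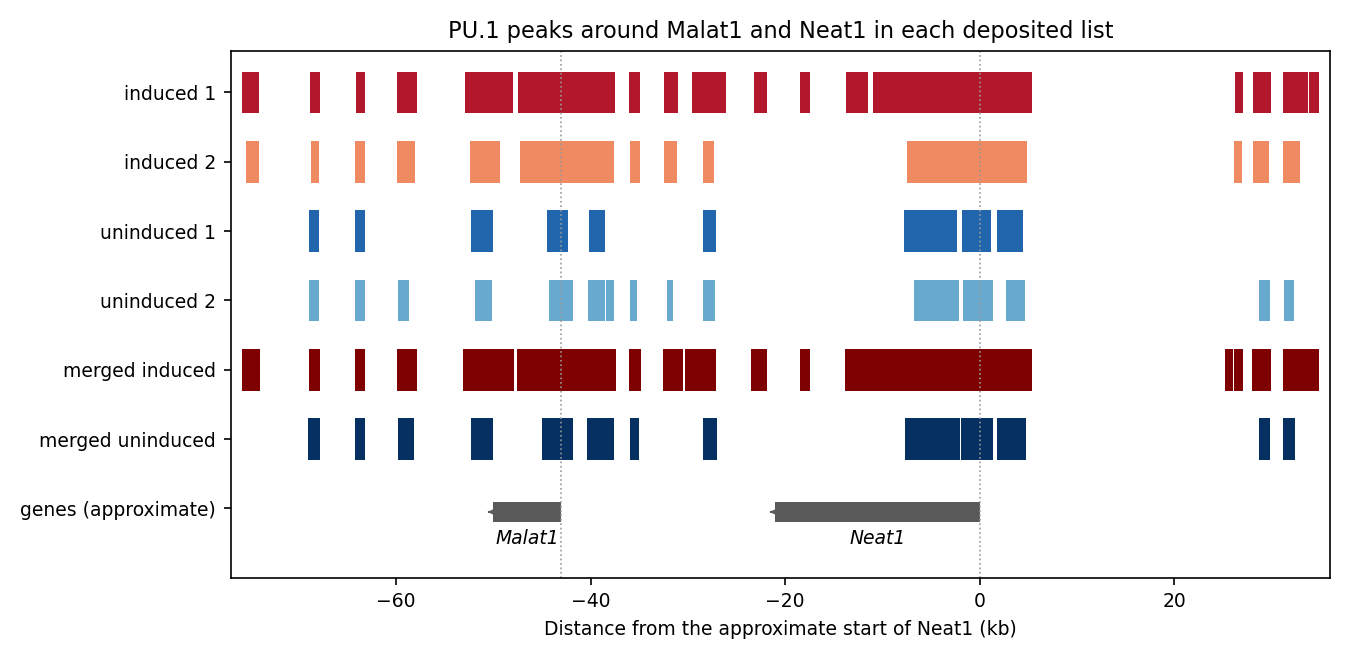
Peaks of the 4 libraries and the 2 merged lists in the Malat1 and Neat1 window, by distance in kb from the approximate start of Neat1 (dotted lines mark the starts of both genes, grey bars the genes, and arrows their direction). The stretch across the start of Neat1 is 1 peak in both induced libraries and 3 peaks in both uninduced libraries. The narrowest gaps cannot be seen at this scale.

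The inner part of Neat1, toward its 3′ end, had peaks in 1 library only. Induced replicate 1 had peaks at chr19:5827575-5828560 (986 bp, score 52.5) and chr19:5832219-5834555 (2337 bp, score 181.35), and a further one just past the 3′ end at chr19:5822777-5824132 (1356 bp, score 125.5). The other 3 libraries had none at these places. In the merged induced list the piece at 5832219 was part of the peak over the start, which spanned chr19:5832208-5851434 with 19227 bp. The induced libraries thus differed more at the left edge of the Neat1 peak than at its right edge.

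At Malat1 the induced peaks were also wide. The peak over its start spanned chr19:5798514-5808549 in induced replicate 1, with 10036 bp and a score of 3100. In induced replicate 2 a peak at chr19:5798715-5805091 (6377 bp, score 1399.06) was followed after a short gap by one at chr19:5805136-5808430 (3295 bp, score 2193.55). In uninduced replicate 1 the start carried chr19:5801519-5803688 (2170 bp, score 881.79) and in uninduced replicate 2 chr19:5801746-5804176 (2431 bp, score 528.67). The peaks over the start were 8206.5 ± 2587.3 bp wide in the induced and 2300.5 ± 184.6 bp in the uninduced libraries (SD, n = 2). Both induced widths lay above both uninduced ones. With peaks summed by region, this held for 49.9% of all regions with a peak in each of the 4 libraries. Upstream of the gene, uninduced replicate 1 had a separate peak of 1614 bp (score 95.34), and uninduced replicate 2 had 1735 bp (score 182.22) and 847 bp (score 145.14), where the induced peaks ran on.

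Next to the 3′ end of Malat1, each of the 4 libraries had a further peak, within chr19:5793097-5798054. With the rounded gene limits, it reached 2055 and 665 bp into the gene in induced replicates 1 and 2, and in both uninduced libraries it ended short of the gene by less than the 0.5 kb of rounding. It measured 4958 bp in induced replicate 1 (score 1603.77), 3037 bp in induced replicate 2 (score 796.48), 2256 bp in uninduced replicate 1 (score 318.43) and 1699 bp in uninduced replicate 2 (score 265.18). Widths and scores of both induced libraries lay above those of both uninduced libraries. Of the 19391 shared regions, those with a peak in each of the 4 libraries, 49.9% had such widths and 54.2% such scores. The mean width was 2.02 times higher in the induced libraries here, 2.24 times over the region that holds the Malat1 start and 1.38 times over the region that holds the Neat1 start, with all peaks of a region summed in each library. Over all shared regions the median of this ratio was 1.15.

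Peaks covered most of Malat1 after induction and little of it before. They covered 93.4% and 70.7% of its approximate interval in induced replicates 1 and 2, and 21.2% and 17.9% in uninduced replicates 1 and 2, or 82.1 ± 16.1% against 19.5 ± 2.29% (SD, n = 2), a ratio of 4.20. For Neat1 the induced shares were 67.9% and 35.5% and the uninduced shares 34.5% and 30.4%, a ratio of 1.59. Induced replicate 2 therefore stood close to both uninduced libraries at Neat1, and induced replicate 1 stood apart. Without induced replicate 1 the ratio at Neat1 was 1.09 and that at Malat1 3.62. The difference between the genes was not tested.

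Over the whole window 52.9 and 37.8 kb were covered in induced replicates 1 and 2, and 20.7 and 24.3 kb in uninduced replicates 1 and 2. The means were 45.4 ± 10.6 and 22.5 ± 2.58 kb (SD, n = 2), a ratio of 2.02. Over the whole genome this ratio was 1.94, so the window as a whole stood close to the genome. Of all covered bases, the window held 0.0666% and 0.0605% for induced and 0.0653% and 0.0586% for uninduced replicates 1 and 2, ranges that overlap. A larger share of cells with PU.1 bound and more binding per cell cannot be told apart in these lists. The depth behind each list is unknown.

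**Figure D2:**
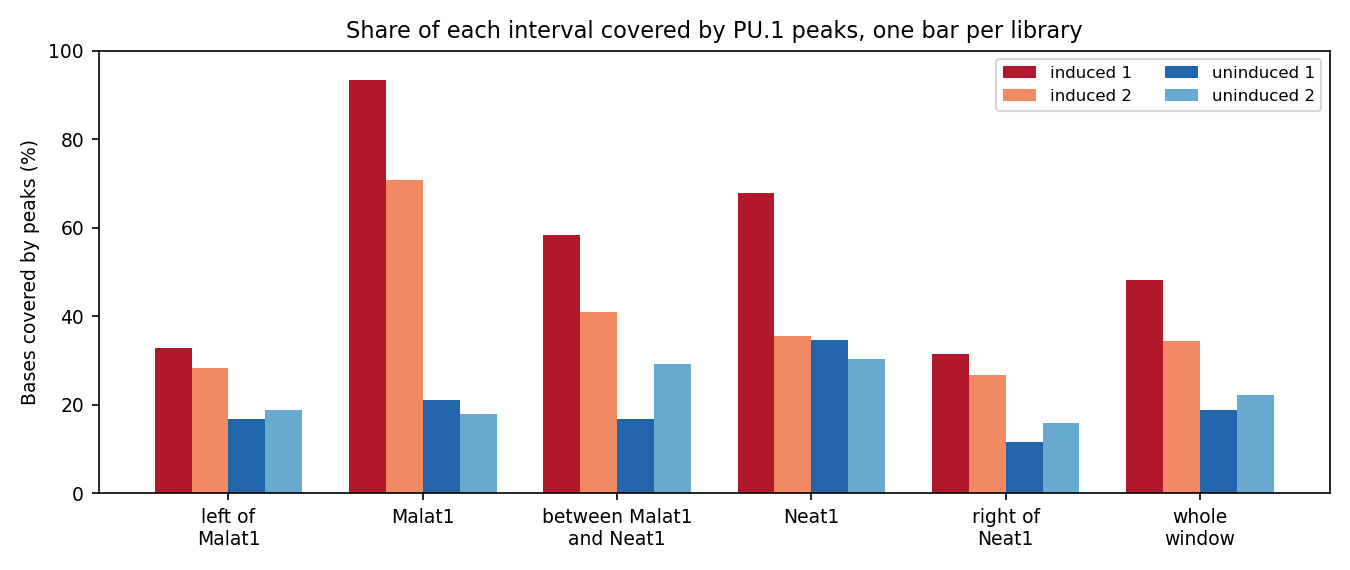
Percent of bases covered by peaks in 5 intervals of the window and in the whole window, with 1 bar per library. Malat1 has the widest separation, 93.4% and 70.7% with induction against 21.2% and 17.9% without, and at Neat1 induced replicate 2 (35.5%) stands beside uninduced replicate 1 (34.5%).

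Between the genes lay peaks with high scores in the induced libraries, narrower than the induced peaks over the gene starts. The region chr19:5813522-5814941 was 1420 bp wide with a score of 2653.9 in induced replicate 1 and 1340 bp with 1827.59 in induced replicate 2, higher than 99.0% and 98.9% of the peaks of those lists. By width these induced peaks were above 80.6% and 81.8% of the same lists, so they were not narrow for their lists. Uninduced replicate 2 had a peak of 658 bp in that region with a score of 145.95, and uninduced replicate 1 had none. Its neighbour, chr19:5816473-5819894, had a peak in each library. That peak scored 2107.36 in induced replicate 1, 1502.23 in induced replicate 2, 201.4 in uninduced replicate 1 and 367.21 in uninduced replicate 2, with widths of 2373, 1183, 1380 and 1215 bp in the same order. Here both induced scores lay above both uninduced ones, as in 54.2% of all shared regions, while the widths of these peaks overlapped. Induced replicate 1 had a further peak of 987 bp (score 52.19) in this region. Closer to Malat1, chr19:5809981-5811127 scored 679.32 and 501.62 in the induced libraries and 95.64 in uninduced replicate 2, with no peak in uninduced replicate 1.

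Beyond the 3′ end of Malat1, a pair of small shared regions had peaks that were no wider with induction than without it. At chr19:5777027-5778131 the peak measured 954 bp in induced replicate 1, 815 bp in induced replicate 2, 1082 bp in uninduced replicate 1 and 1087 bp in uninduced replicate 2, with scores of 125.09, 89.33, 226.44 and 109.37 in the same order. Both uninduced peaks were wider than both induced ones, the reverse of the genes. At chr19:5781798-5782823 the widths were 972, 990, 1017 and 1009 bp and the scores 192.62, 71.78, 73.37 and 75.89, so that the scores of the conditions overlapped. Next to them, chr19:5786100-5788112 reached scores of 1186.45 and 716.09 in the induced libraries against 86.74 in uninduced replicate 2, with no peak in uninduced replicate 1.

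Of the 17 regions of the window, 6 were shared (35.3%, against 23.4% of all regions), 2 were gained, found in each induced but no uninduced library (11.8%, against 22.2%), and 0 were lost, found in each uninduced but no induced library (against 3.8%). The remaining 9 were mixed (52.9%, against 50.5%). With so few regions these shares are descriptions. One of the gained regions was chr19:5872165-5873087, upstream of Neat1, which scored 231.6 in induced replicate 1 and 113.9 in induced replicate 2. Of the mixed regions, 5 lacked a peak in uninduced replicate 1 alone, and 4 had one only in induced replicate 1. Without uninduced replicate 1, 11 regions were shared, and without uninduced replicate 2, 7 were gained. Upstream of the Neat1 peak, on the side of Frmd8, chr19:5851435-5871198 (19.8 kb) held no peak in any of the 6 lists. No position of Frmd8 was taken, so this stretch and the regions beyond it may lie within that gene. Beyond it, chr19:5874127-5875928 and chr19:5877174-5879771 had peaks in both induced libraries, scoring 422.36 and 263.38 at the former and 1148.26 and 983.03 at the latter. In uninduced replicate 2 they scored 212.6 and 213.25, and uninduced replicate 1 had no peak at either. Induced replicate 1 alone had a last peak at chr19:5879892-5880889, with a score of 62.29.

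Within the 6 shared regions, both induced widths exceeded both uninduced widths in 3 (all shared regions: 49.9%), and both induced scores exceeded both uninduced scores in 4 (all shared regions: 54.2%). The mean width was higher in the induced libraries in 4 of 6 (all shared regions: 79.5%). The choice of the window used these values, so nothing is read from the counts. The median width ratio was 1.57 for these 6 regions and 1.22 for the 648 other shared regions of chromosome 19.

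The peaks of the window were set beside all broad peaks, here those of at least 3 kb. Broad peaks made up 1.85% of the peaks in induced replicate 1 (1257), 1.0% in induced replicate 2 (574), 0.166% in uninduced replicate 1 (53) and 0.282% in uninduced replicate 2 (121). The window held 3, 4, 1 and 2 of them in the same order. The merged lists held 4 (induced) and 3 (uninduced) there, with 3.03% and 0.746% of their peaks broad. Just inside the limit were peaks of 3037 bp in induced replicate 2 and 3084 bp in uninduced replicate 2, and just outside were peaks of 2972 and 2709 bp in uninduced replicate 1, both in the stretch at Neat1, and of 2590 bp in induced replicate 1. Outside the window the broad peaks had a median width of 3545.0 and 3490.5 bp in the induced libraries, and the widest reached 11025 and 9566 bp, less than the Neat1 peak of the same library.

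Width and score did not go together in a simple way. In induced replicate 1 the Neat1 peak and the peak over the Malat1 start, both at 3100, scored above 85.5% of the broad peaks, and the peak at the Malat1 3′ end above 53.0%. In induced replicate 2 the Neat1 peak scored above 92.3% of the broad peaks, the Malat1 start peak above 61.5%, its upstream neighbour above 82.9% and the 3′ peak above 31.7%. In uninduced replicate 1 the 5476 bp peak inside Neat1 scored above 92.5% of the broad peaks, whereas in uninduced replicate 2 the corresponding peak scored above 13.2%. The width of this peak was thus similar in both uninduced libraries and its place by score was not. Per kb of width the Neat1 peaks of the induced libraries scored above 11.4% and 33.3% of the broad peaks. This divides by the width that chose the locus, and in induced replicate 1 the score is the repeated value 3100. A low place per kb was therefore built in and is no measure of how densely PU.1 was bound. Across the broad peaks, width and score had a Pearson r of 0.36 (n = 1257) and 0.33 (n = 574) for induced replicates 1 and 2 and of -0.09 (n = 53) and -0.11 (n = 121) for uninduced replicates 1 and 2, given as a description, since peaks of a list share 1 library.

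**Figure D3:**
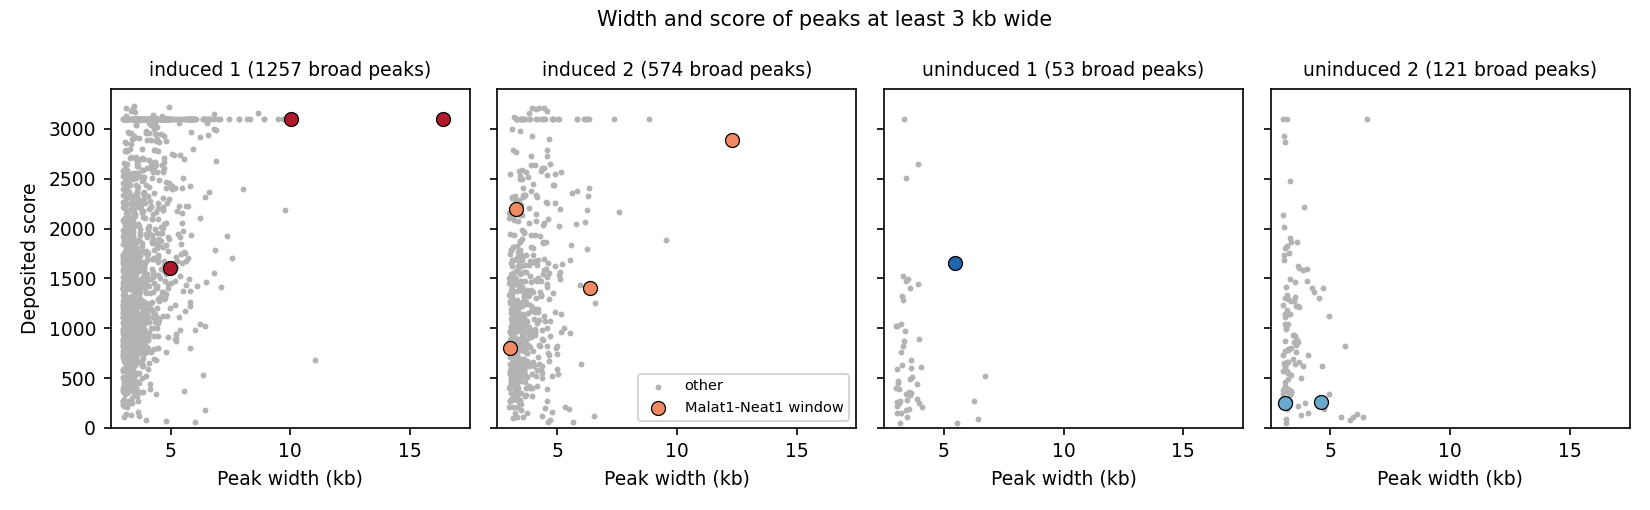
Width in kb and deposited score of all peaks at least 3 kb wide in each library (grey), with those of the Malat1 and Neat1 window coloured. The Neat1 peak stands farthest right in both induced panels, at 16365 and 12317 bp, while in the uninduced panels other peaks are wider.

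The part of each broad induced peak that already had a peak before induction was then compared. Uninduced replicate 1 covered a median of 41.6% of the other broad peaks of induced replicate 1, and uninduced replicate 2 covered 62.9%. For the Neat1 peak these values were 68.2% and 58.6%, and for the peak over the Malat1 start 37.7% and 50.0%. In induced replicate 2 the medians of the other broad peaks were 48.9% and 71.4%, the Neat1 peak was at 88.0% and 77.9%, and the Malat1 start peak at 34.0% and 38.1%. The Neat1 peak was above the median in 3 of these 4 pairs of libraries, and the Malat1 start peak below it in each of the 4. The neighbour of that peak in induced replicate 2, chr19:5805136-5808430, was above both medians, at 49.0% and 78.4%. The peak at the Malat1 3′ end was above the median for uninduced replicate 1 (45.5% and 74.3% in induced replicates 1 and 2). For uninduced replicate 2 it was below (34.3% and 55.9%). Of the other broad peaks of induced replicate 1, 3.19% held 3 or more peaks of uninduced replicate 1 and 6.78% held 3 or more of uninduced replicate 2, as the Neat1 peak did in both. Wider peaks have room for more, and this was not corrected for.

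**Figure D4:**
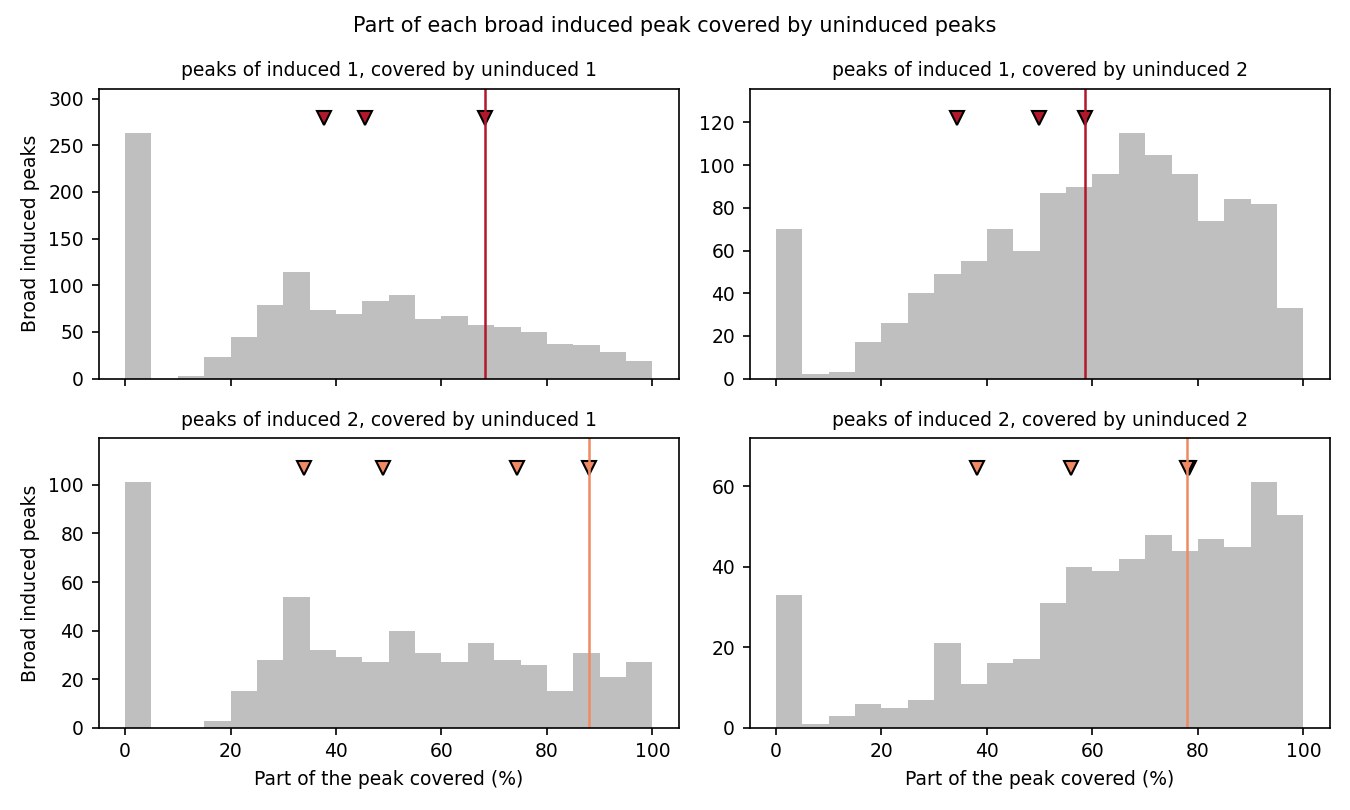
Number of broad induced peaks outside the window (grey) by the percent of their length covered by peaks of an uninduced library, for each pair of libraries. Triangles mark the broad peaks of the window and the line the Neat1 peak, which is at 68.2% and 58.6% for induced replicate 1 and 88.0% and 77.9% for induced replicate 2.

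Ordered by the lower of the widths of their widest peak in the induced libraries, the region over the Neat1 start came first of all regions, that over the Malat1 start came at rank 8 and that at the Malat1 3′ end at rank 473. The 10 widest regions outside the window had lower widths of 6282 to 9566 bp. Of these, 8 were shared, 1 was gained and 1 was mixed, against 23.4%, 22.2% and 50.5% of all regions. The order required a peak in both induced libraries, a filter that the shares of all regions do not have. Lost regions and those with a peak in only 1 induced library were thus left out beforehand. Wide regions also have more room to meet a peak of each library, and this was not corrected for. Nothing is therefore read from the comparison of these shares. By position, 3 lay on chromosome 3, 3 on chromosome 8 and 1 on chromosome 19, for which no share of all regions was formed. The widest was chr15:19637732-19647504, with 9773 and 9566 bp in the induced libraries, no peak in uninduced replicate 1 and 1 of 861 bp in uninduced replicate 2. It was followed by chr3:43740841-43749735 (8893 and 8846 bp) and chr5:143576593-143585614 (8897 and 7599 bp). On the same chromosome as Neat1, chr19:4297196-4306721 had 9477 and 7362 bp and scores of 3100 in both induced libraries, with a widest uninduced peak of 2306 and 1567 bp. Over these 10 regions, uninduced peaks covered a median of 40.7% (0.0 to 94.2%) in uninduced replicate 1 and 39.4% (0.0 to 91.1%) in uninduced replicate 2. An uninduced peak of at least 3 kb was present in 2 of the 10 in each uninduced library. The Neat1 region had one in both, and it is among 28 of the 499 regions with both induced widths of at least 3 kb for which this holds.

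Windows of the same length laid end to end over the genome give a last measure. In induced replicate 1 and in both uninduced libraries no such window had more bases under peaks than the Malat1 and Neat1 window, and in induced replicate 2, 1 of 13405 had more. The median window with a peak had 3.74 and 3.15 kb covered with induction and 1.60 and 1.86 kb without. The locus stood out less by number of peaks, with 86, 211, 87 and 21 windows holding more peaks in induced replicates 1 and 2 and uninduced replicates 1 and 2. The window was placed on the locus and the others on a fixed grid, which favours the locus. It was also chosen by the widths of induced peaks, so a high place by covered bases in the induced lists was partly built in.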

How the data were processed

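Peaks of PU.1 ChIP-seq were taken from 6 lists, 1 for each of 4 libraries and 1 merged list per condition. Trim Galore, Bowtie, MACS 1.4.1 and build mm9 are listed in the submitters' processing notes. Each list has 5 columns, and its only measurement is the authors' score of each peak, which starts at 50. The sources used here give neither its scale, nor whether the 2 input libraries were controls in peak calling, nor how lists were merged. The inputs were not analysed here. The depth is unknown, and where no peak is listed PU.1 may still have bound below the authors' threshold.

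Samples were grouped by title. Starts were counted from 1. Gene limits are the rounded ones stated above, and gene order and the promoter come from RefSeq tables of GRCm38.p6. The members and lists were chosen with earlier results of these data known. Every region of the window was named except 1 that is not reported here, and outside it the 10 widest regions, ordered by the smaller of their induced widths. No test was run, since width in these lists chose the locus. Alternatives were a minimum score of 100, the 31960 best peaks of each list, joining within 1 kb, the merged lists, other windows, an overlap of 50% of both intervals, other limits for broad peaks (2 and 5 kb) and leaving out each library. Python 3.11.15, NumPy 2.4.6, pandas 2.3.3 and matplotlib 3.10.9 were used, and the functions were tested on simulated lists.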

Additional observations from a re-analysis of the deposited data

How the results depend on the processing

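The ratio of covered length in the window stayed above 1 under the 10 alternatives other than pairing, from 1.68 to 2.38. The ratio over the whole genome, 1.94 in the main setting, lies within this range. It was not formed for the alternatives, so they do not set the window apart from the genome. Scores of at least 100 gave 4 gained regions and a worst uninduced rank by width of 12. Lists of equal length gave 1 gained region. They held a mean of 12.0 peaks in the window for induced and for uninduced libraries, against 16.0 and 12.0 in the full lists. With peaks joined within 1 kb the mean widest uninduced peak was 10177.5 bp, and the worst ranks among the single libraries were 3 (induced) and 5 (uninduced). The score percentile of the window's broad peaks was taken as the median in each library and averaged over the libraries. For the induced libraries it was 91.7 with joining, against 78.9 in the main setting and 55.5 with broad set at 5 kb. At 5 kb no uninduced percentile could be formed for both libraries. The merged lists gave widest peaks of 19227 and 5654 bp and an uninduced rank of 11. A window wider by 50 kb on each side gave 29.0 induced peaks on average, 5 gained and 17 mixed regions. The intervals of the 2 genes alone gave means of 4.0 induced and 3.0 uninduced peaks, and 3 shared, 0 gained and 2 mixed regions. An overlap of 50% of both intervals gave 5 gained regions.

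Leaving out each library in turn gave 6 to 11 shared, 2 to 7 gained and 4 to 5 mixed regions. With 1 uninduced library left, the median score percentile of its broad peaks in the window was 12.8 or 92.5. The widest uninduced peak ranked 5 or 13. Paired by replicate number, which the labels do not say marks a shared culture or day, the ratio of covered length was 2.56 for number 1 and 1.56 for number 2, with a mean of 2.06. This pairing was added after the data were seen. Presence of a peak depends on the authors' threshold and on depth, which is unknown.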
